A study of Mus musculus with 3 samples.

Results

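Esrra is the mouse gene of the estrogen-related receptor ERRα, the protein that was itself immunoprecipitated in this series. The gene is described here through its locus, a 25-kb stretch of mouse build mm9 (chr19:6980001-7005000) whose promoter side was given as the place of an ERRα peak at chr19:6996401-6997400. The stretch was 1 gene locus, or 125 of the 12384582 bins of 200 bp that carried coverage in at least 1 library on chromosomes 1 to 19, X and Y. It was chosen because its ERRα coverage was high against the control, so the ERRα values at the main peak are a description and support nothing. No mm9 annotation was used here, so no distance from a start site of Esrra is given and the assignment of the stretch to the gene was not checked.

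Chromatin came from livers of C57Bl/6 males aged 2 to 3 months, with no treatment named in the labels, and all 3 groups share this strain, sex and age. The groups were a ChIP for mTOR with an Abcam antibody, a ChIP for ERRα with an Epitomics antibody and a control with rabbit IgG, each of 1 library. Behind the mTOR and the ERRα library stood 8 pooled immunoprecipitations each, made from a common chromatin pool of 26 livers. The pool behind IgG was not described. With 1 library a group, values have no replicate check and no test between groups was possible. The libraries held 62500000, 74200000 and 68800000 tags for mTOR, ERRα and IgG, and coverage was scaled by the authors to 10000000 tags. Whole liver was used, so the cell type behind a signal is not known, and chromatin gives no marker expression to check. Mean coverage of chromosome X was 0.431 to 0.458 times that of the autosomes in the 3 libraries, and 9756 to 9811 bins of chromosome Y carried tags. Mean coverage in those chromosome Y bins was 2.72 to 3.03 times that of the autosomes, and the cause was not tested.

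ERRα is an orphan nuclear receptor that binds DNA at an AGGTCA core preceded by a short extension, the ERR response element TCAAGGTCA, and that acts with the coactivators PGC-1α and PGC-1β on genes of mitochondrial energy metabolism. Its own gene is known to be a target of ERRα and PGC-1α, in a loop in which the receptor acts on its own promoter. mTOR is the kinase that rapamycin inhibits, and it acts mainly in the cytoplasm on growth and protein synthesis, with a part of it reported in the nucleus.

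The promoter of Esrra is shown because the main ERRα peak was assigned to that side of the gene. In RefSeq on assembly GRCm38.p6 the 250 bases before its annotated start lie at chr19:6921809-6922058 on the minus strand, and these coordinates cannot be set against the mm9 ones. The capitals mark CG dinucleotides, of which these 250 bases hold 22.

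Esrra, GRCm38.p6, minus strand, 5′ to 3′: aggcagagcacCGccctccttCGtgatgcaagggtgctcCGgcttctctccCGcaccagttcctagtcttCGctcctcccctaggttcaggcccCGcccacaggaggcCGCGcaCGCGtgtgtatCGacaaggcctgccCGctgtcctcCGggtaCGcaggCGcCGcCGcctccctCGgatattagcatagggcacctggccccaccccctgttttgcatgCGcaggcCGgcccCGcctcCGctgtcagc

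The table window, which adds 50 bases after the start, had a GC content of 66.0% and held 25 CG dinucleotides. The median of all 32851 windows was 52.7% and 7, and 83.8% of windows had a lower GC content. TCAAGGTCA, its shorter form AAGGTCA and the core AGGTCA were searched on both strands, and the longer forms contain the shorter ones. None of the 3 was in the Esrra window, nor was a pair of AGGTCA cores on the same strand with a spacer of 0 to 5 bases. Across all windows TCAAGGTCA was in 0.423%, AAGGTCA in 4.72% and AGGTCA in 16.3%. The missing match concerns these letters in this window and not the peak, whose mm9 sequence was not read.

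The same search was made for 21 genes: the ERR family, their coregulators, Mtor and genes known as ERR targets. A window was found for 19 of them and not for Ppargc1b and Idh3a. These 19 genes had 27 windows. The core was in 3 of the 19 genes, against 16.3% of all windows, so nothing is read from this count or from its absence at Esrra. The 3 are shown with the core in capitals as examples of a match. Acadm encodes medium-chain acyl-CoA dehydrogenase of fatty acid oxidation, and its match was the reverse strand of AAGGTCA. Cox5b encodes a subunit of cytochrome c oxidase, and Sdhb encodes the iron-sulfur subunit of succinate dehydrogenase.

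Acadm, 249 bases before the start: gTGACCTtcgggctccggt

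Cox5b, 145 bases before the start: actcaagcggacAGGTCAtgaacccgaaag

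Sdhb, 86 bases before the start: ctcagactccagAGGTCAccttaggaacat

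On GRCm38.p6 Esrra is read from the minus strand in a dense group of genes. On the side of its 3′ end it overlaps Trmt112, which encodes an activating subunit of methyltransferases, and beyond that lies Prdx5, which encodes a peroxiredoxin. On the side of its promoter lie Catsperz, which encodes a part of the sperm calcium channel CatSper, and Kcnk4, which encodes a potassium channel. The microRNA gene Mir6990 lies inside Esrra. Peaks of the 25-kb stretch other than the main one could therefore lie in or near any of these genes, and they are named by position.

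The ERRα ChIP had a tall, compact peak at Esrra. In the highest 200-bp bin, chr19:6996801-6997000, ERRα coverage was 58.0, mTOR coverage 1.82 and IgG coverage 0.600. The next bin toward lower coordinates, chr19:6996601-6996800, held 56.8, 2.50 and 0.600 in the same order. ERRα was thus far above both other libraries over 400 bp, while IgG in these bins lay under its own mean of 0.650 over the uncalled bins of the locus. The ERRα value of the highest bin corresponds to about 576 tags and the IgG value to about 6. The ratio of ERRα to IgG was 96.6 there, with an exact (Clopper-Pearson) 95% interval of 40.6 to 244, whose width comes from the few IgG tags. With a pseudocount of 0.2 added to both values, which is the scale used for calling, it was 72.7-fold. All intervals cover counting error only, on tags approximated from coverage.

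**Figure D1:**
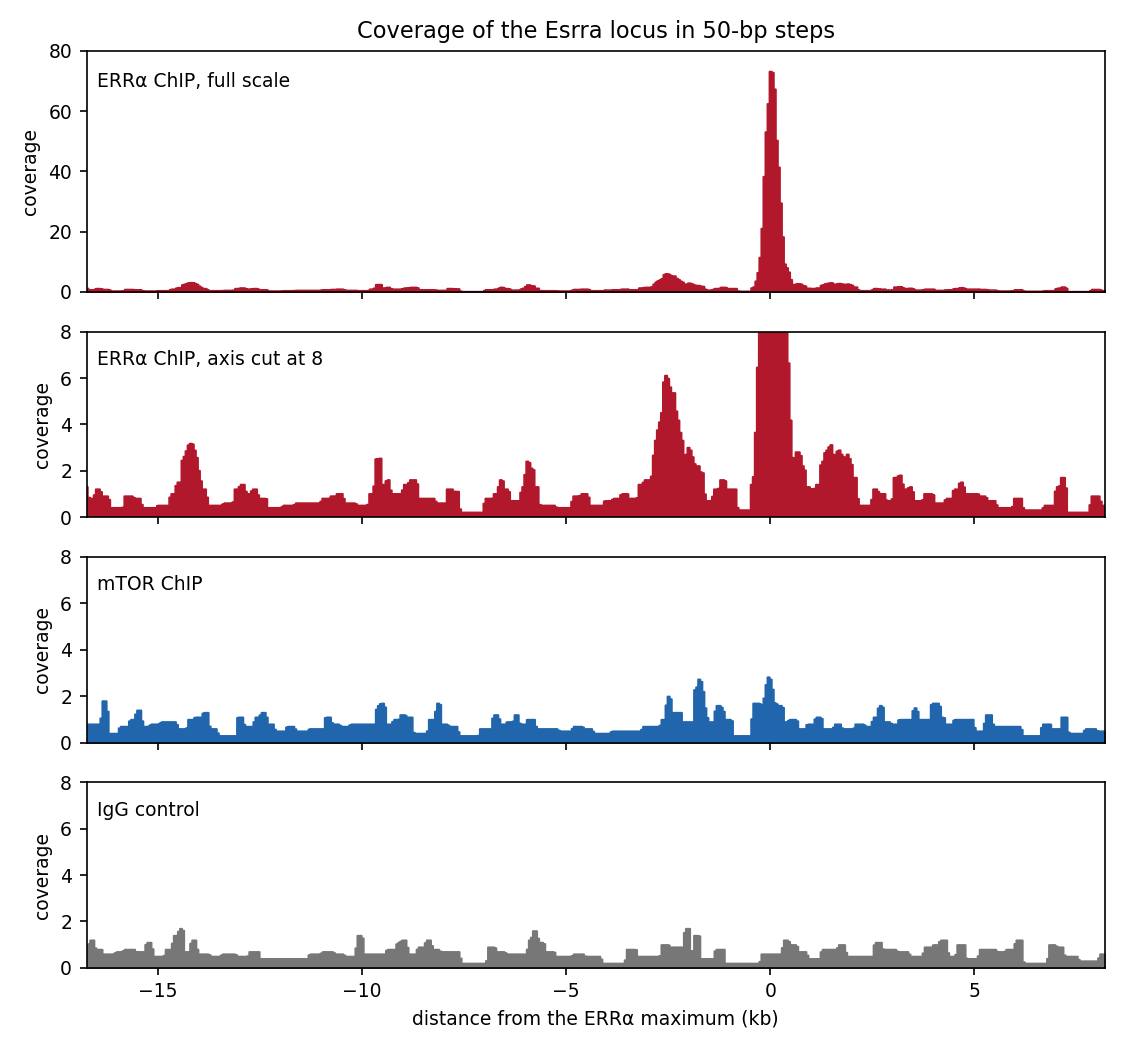
Coverage scaled to 10000000 tags (vertical axes) in 50-bp steps over the 25-kb Esrra locus, by distance in kb from the ERRα maximum, for the ERRα ChIP at full scale and cut at 8, the mTOR ChIP and IgG. The ERRα peak at 0 reaches 73.2 in these steps, a lower one at about -2.5 kb reaches 6.10, and mTOR and IgG stay under 3 throughout.

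At its highest point, position 6996778, ERRα coverage reached 76.3. The peak was 369 bp wide at 50% of that maximum and 692 bp wide at 10%. It was not symmetric: from the maximum to the 50% level it ran 152 bp toward lower coordinates and 216 bp toward higher ones, and to the 10% level 282 bp and 409 bp. ERRα coverage in 50-bp steps rose from 3.64 at chr19:6996401-6996450 to 73.2 at chr19:6996751-6996800 and fell to 2.44 at chr19:6997351-6997400, with no lower step on the way up and no higher one on the way down. The peak therefore had 1 summit at this resolution. Deposited intervals inside the peak were short in the ERRα track, with a median of 8 bp, but had a median of 92.5 bp in the mTOR track and 250 bp in the IgG track, so steps of 50 bp are finer than the mTOR and IgG data.

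The whole peak region of 1 kb held about 1448 ERRα tags, 69 mTOR tags and 32 IgG tags. It made up 4% of the length of the locus and held 52.5% of its ERRα coverage, against 7.83% of its mTOR coverage and 4.29% of its IgG coverage. Mean coverage of the region was 29.1 for ERRα, 1.64 for mTOR and 0.705 for IgG. Over the region the ratio of ERRα to IgG was 41.4 (29.6 to 61.6).

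**Figure D2:**
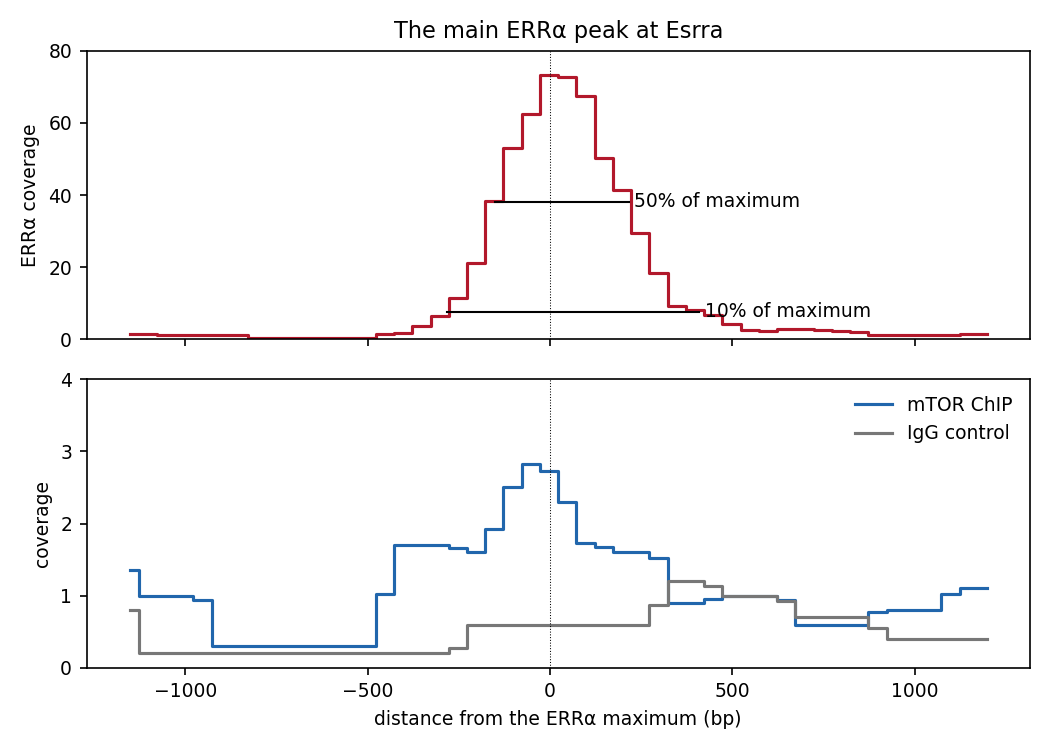
Coverage scaled to 10000000 tags in 50-bp steps against distance in bp from the ERRα maximum: ERRα above, with lines at 50% and 10% of its maximum, and mTOR and IgG below on an axis to 4. mTOR is highest near the ERRα maximum, at 2.83, where IgG is 0.600, and mTOR meets IgG on the side of higher coordinates.

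mTOR was low at the Esrra peak, but above IgG in its central part and on its side of lower coordinates. Across the 5 bins of the region, in order of position, mTOR coverage was 1.67, 2.50, 1.82, 1.23 and 0.990. IgG was 0.320, 0.600, 0.600, 0.969 and 1.03 in the same bins. mTOR was thus the higher in the 4 bins of lower coordinates and not in the last. In the highest ERRα bin mTOR was 3.04 times IgG (1.01 to 8.66, from about 15 and 6 tags), or 2.53-fold with the pseudocount. In the bin beside it, chr19:6996601-6996800, mTOR was 4.16 times IgG (1.50 to 11.7), or 3.37-fold with the pseudocount. The largest ratio of the region was at its edge, in chr19:6996401-6996600, where ERRα coverage was only 10.7. There mTOR was 5.21 times IgG (1.43 to 27.9, from about 14 and 3 tags), or 3.59-fold with the pseudocount. Over the whole region the ratio was 2.33 (1.54 to 3.73), with more tags behind it. The highest mTOR interval, at 3.0, had its midpoint 29 bp from the ERRα maximum, which is less than the 64 bp of the shortest mTOR interval in the region, so the summits could not be told apart. These positions were chosen on ERRα, yet the ratio shares its IgG values with that choice, which favours low IgG.

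The difference between the ChIPs was large. In the highest bin ERRα coverage was 31.8 times mTOR coverage (19.4 to 58.2), and over the region 17.8 times (13.9 to 22.8). Above the mean of the flanks 2 to 5 kb away on both sides, the summed mTOR excess of the region equalled 2.79% of the ERRα excess, and the IgG excess equalled 0.116%. The flanks had means of 1.43 for ERRα, 0.867 for mTOR and 0.672 for IgG, and they include the lower ERRα peak near -2.6 kb. The highest ERRα bin stood at 40.5 times the ERRα flanks. mTOR in that bin stood at 2.10 times its own flanks and IgG at 0.892 times, a comparison in which mTOR is not divided by IgG.

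A bin was called for a ChIP where coverage with the pseudocount was at least 3 times that of IgG and exceeded 2.01, a level that 1 in 1000 covered IgG bins exceeded; adjacent called bins were joined into regions. By this rule 12 of the 125 bins of the locus (9.60%) were called for ERRα, against 0.327% of all bins, and nothing is read from that excess because the locus was chosen on this contrast. For mTOR 1 bin was called (0.800%), against 0.129% of all bins. In no bin of the locus was IgG called above the ERRα or the mTOR ChIP, which happened in 0.000937% and 0.00102% of all bins. The called mTOR bin was chr19:6996601-6996800, inside the ERRα peak. It was not called with the pseudocount doubled or at a minimum of 5-fold.

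The 12 ERRα bins formed 5 regions, of which the main peak was 1. The strongest of the others, chr19:6993801-6994600, spanned 800 bp with its highest bin 2.60 kb from that of the main peak toward lower coordinates. There ERRα coverage was 5.76, mTOR coverage 1.70 and IgG 0.946, so ERRα was 6.08 times IgG (2.89 to 13.5). This region was about 10 times lower than the main peak in ERRα level and stood clearly above IgG, with 170 against 28 tags over its length. mTOR over the same 800 bp was 1.47 times IgG, with an interval of 0.893 to 2.53, so an mTOR excess was not detectable there at this depth.

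The remaining 3 ERRα regions were single bins close to the calling limits. At chr19:6982401-6982600, 14.4 kb from the main peak toward lower coordinates, coverage was 2.93 for ERRα, 0.810 for mTOR and 0.790 for IgG. At chr19:6998201-6998400, 1.4 kb on the other side, it was 2.82, 0.666 and 0.800. At chr19:6998601-6998800, 1.80 kb on that side, it was 2.50, 0.600 and 0.542. ERRα was the highest library in each, at 3.71 times IgG (1.65 to 10.4), 3.52 times (1.58 to 10.1) and 4.61 times (1.74 to 15.5), while mTOR was 0.832 to 1.11 times IgG with intervals that included 1. With the pseudocount the lowest fold inside the limit was 3.02, at chr19:6998201-6998400. Just outside lay chr19:6997401-6997600 at 2.94-fold and chr19:6998001-6998200 at 2.85-fold. Between these 2 bins ERRα coverage fell to 1.46 and 1.31, near its flank mean of 1.43 (2 to 5 kb away on both sides). Those flanks include the peak near -2.6 kb, and both values stayed above the mean of 0.942 in the uncalled bins. IgG was also lower there, and ERRα was 2.85 and 3.27 times IgG, with intervals that included 1. The bins at 2.94-fold and 2.85-fold stood at 3.45 and 3.32 times IgG without the pseudocount. A trough between the main peak and the low signal around chr19:6998201-6998400 was thus seen in ERRα coverage but not clearly relative to IgG. The bin between the called ones at 1.4 and 1.80 kb held 2.75 for ERRα against 0.968 for IgG and was not called, at 2.53-fold.

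**Figure D3:**
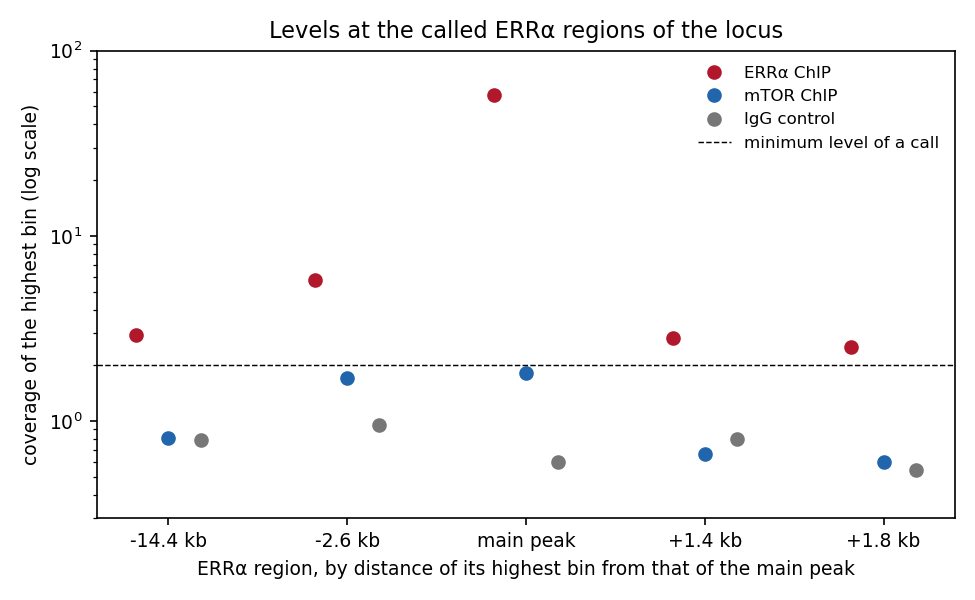
Coverage of the highest bin (log axis, scaled to 10000000 tags) of the 5 called ERRα regions of the locus in the ERRα ChIP, mTOR ChIP and IgG, with the minimum level of a call as a dashed line. ERRα runs from 2.50 to 58.0, and mTOR lies under the dashed line in all 5 of these bins.

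Finer maxima were listed in 50-bp steps where a ChIP, with the pseudocount, was at least 2 times IgG, exceeded the level that 1 in 100 IgG steps exceeded and was the highest within 500 bp. ERRα had 9 such maxima and mTOR had 3. Outside the called regions lay 5 of the ERRα maxima. The higher ones were 9.55 kb from the main peak toward lower coordinates, at 2.53 against 0.600 in IgG, and 5.95 kb away on that side, at 2.40 against 0.804. The lower ones were 8.80 and 6.60 kb away on that side, both at 1.60 against 0.600 and 0.700 in IgG, and 3.20 kb away on the other side, at 1.80 against 0.700. The mTOR maximum at chr19:6996701-6996750 (2.83) lay in the step beside the ERRα maximum. Another mTOR maximum, at chr19:6987251-6987300, lay 50 bp from the ERRα maximum at chr19:6987201-6987250, with mTOR at 1.70 and IgG at 0.600. The third, at chr19:6980401-6980450, held 1.80 for mTOR, 0.900 for ERRα and 0.600 for IgG. A further mTOR bin just missed the calling limit: at chr19:6995001-6995200 mTOR was 2.27, ERRα 1.76 and IgG 0.645, which was 2.92-fold with the pseudocount and 3.52 times IgG without it (1.34 to 10.7). This bin lay between the main ERRα peak and the one near -2.6 kb, and it was the highest mTOR bin of the locus after the called one.

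Outside all called bins, the remaining 113 bins of the locus still carried more coverage on average in the ChIPs than in IgG. Their mean was 0.942 for ERRα, 0.796 for mTOR and 0.650 for IgG. ERRα there was 1.45 times IgG (1.32 to 1.61) and mTOR 1.22 times (1.11 to 1.36). The same ratio was taken in 83146 windows of 25 kb across the genome that IgG covered in full and in which no IgG bin exceeded 2.01. The median was 0.965 for ERRα and 0.971 for mTOR, and the locus lay above 99.9% of windows for ERRα and above 97.8% for mTOR. Part of the ERRα value comes from bins beside the peaks that missed the limit. The locus was also chosen on ERRα over IgG, so nothing is read from its ERRα standing. The mTOR ratio shares its IgG values with that choice. Most windows of the genome are unlike the locus: of 101472 windows of 25 kb with coverage, 84.4% held no ERRα region. Because the uncalled bins of the locus lay above IgG on average, the mTOR excess of the main peak was also set against them. Some of them lay under IgG, such as chr19:6991001-6991200 with ERRα at 0.908, mTOR at 0.626 and IgG at 1.27. Relative to IgG, mTOR was 1.93 times higher in the peak region than in the uncalled bins (exact interval 1.24 to 3.08). On the same scale ERRα was 28.8 times higher (20 to 42.8).

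The levels of the ChIPs along the locus moved together in part. Over the 125 bins Pearson's r was 0.52 between ERRα and mTOR and 0.03 between ERRα and IgG. Over the 120 bins outside the main peak region, r was 0.41 between ERRα and mTOR, 0.37 between ERRα and IgG and 0.37 between mTOR and IgG. So outside the peak each ChIP resembled IgG about as much as the other ChIP. These are descriptions over neighbouring bins of 3 libraries, which share mappability and base composition and in which a tag or a deposited interval can span several bins.

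Among all ERRα bins with coverage the highest Esrra bin ranked 227 of 12269669 by level, and it was the highest on chromosome 19. Most of the bins above it were also bright in IgG: among bins with IgG up to 2.01 it ranked 13 of 12257373. In the mTOR ChIP the same bin ranked 56741 of 12276922, and its IgG level was higher than 55.8% of covered IgG bins. As a region, Esrra ranked 4 by fold and 12 by level among 21765 ERRα regions, and it was first by both among the 804 of chromosome 19. By fold it stood between chr5:139450001-139451800 at 83.1-fold and chr8:96994201-96995000 at 71.7-fold. By level it stood between chr1:192780001-192781600, at 58.1, and chr10:42182401-42183600, at 56.9. The interval of its ratio to IgG, 40.6 to 244, contains the ratios of 101 and 93.9 at its neighbours by fold, so a difference from them was not detectable at this depth.

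The 5 ERRα regions most like Esrra in all 3 libraries were found by the Euclidean distance between log2 values (coverage plus 0.2) of their highest bins, over the 3 libraries. They were chr11:19762001-19762800 at a distance of 0.399, chr16:37654401-37655400 at 0.483, chr12:12182801-12183800 at 0.552, chr4:129969201-129970000 at 0.564 and chr10:24589401-24590200 at 0.577. Their ERRα coverage was 40.1 to 53.8, their mTOR coverage 1.17 to 2.05 and their IgG coverage 0.582 to 0.839. The closest held 45.9, 1.72 and 0.720 for ERRα, mTOR and IgG, against 58.0, 1.82 and 0.600 at Esrra. The mTOR and IgG values of these bins and of Esrra rested on 5 to 17 tags each.

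Esrra was set against the other 999 of the 1000 ERRα regions with the highest level, which began at 10.5. Its mTOR level of 1.82 was above that of 75.7% of them (median 1.32, quartiles 0.964 and 1.81). mTOR over its own flanks, at 2.10, was above 64.0% of them (median 1.79, quartiles 1.27 and 2.45). Set against IgG, mTOR at Esrra ranked higher. With the pseudocount it was 2.53-fold over IgG, above 84.8% of the others and above their upper quartile of 2.07. The IgG level at Esrra was low, at 0.600 or about 6 tags, and 78.0% of the others were at or above it (median 0.800). Without the pseudocount the ratio of mTOR to IgG was 3.04, with an interval of 1.01 to 8.66. mTOR over its flanks divided by IgG over its flanks was 2.36, above that of 799 of the 999 (median 1.46, upper quartile 2.15). Its mTOR level was 3.15% of its ERRα level, lower than in 97.7% of the others (median 8.70%); the divisor of this share is the ERRα level by which the regions were chosen. IgG at Esrra stood at 0.892 times its flanks against a median of 1.19. An mTOR region overlapped 107 of the 1000 (10.7%), Esrra among them. Of all 200-bp bins 0.129% were called for mTOR, a share per bin and not per region. The share over all 21765 ERRα regions is not given, so nothing is read from the count. At Esrra the overlap was 1 bin at 3.37-fold, which was not called with the pseudocount doubled.

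**Figure D4:**
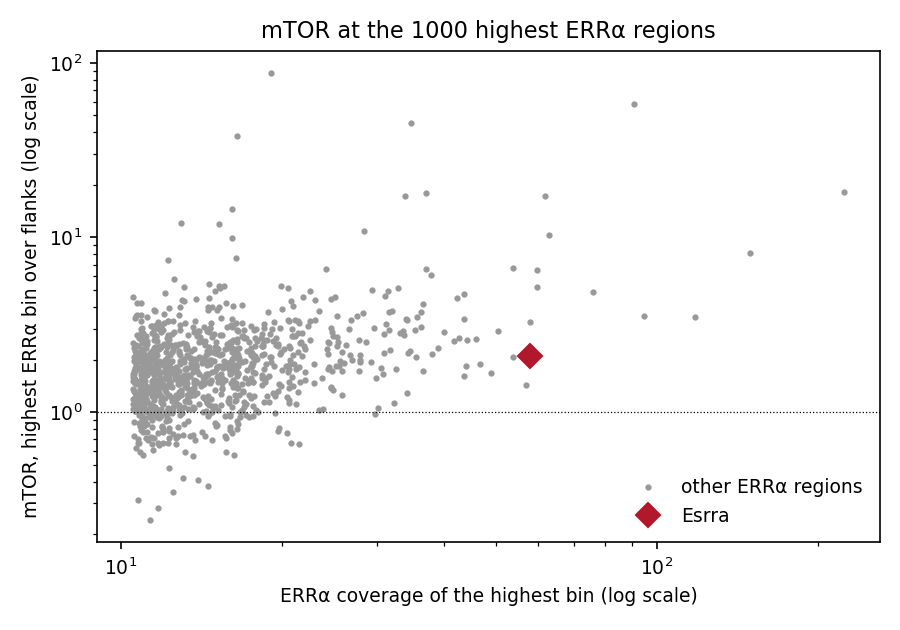
mTOR coverage in the highest ERRα bin divided by mTOR flanks 2 to 5 kb away (log axis) against the ERRα coverage of that bin (log axis, scaled to 10000000 tags), for the 1000 ERRα regions of highest level, with Esrra as a diamond. Esrra lies at 58.0 and 2.10, and the 11 regions to its right lie at 3.26 to 57.9, but IgG, which is not plotted, rose 50.8 times over its flanks at the highest of them.

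In all 11 regions with a higher ERRα level than Esrra, mTOR stood higher over its flanks than at Esrra, from 3.26 to 57.9 with a median of 6.51. IgG also stood higher over its flanks in all 11, from 1.08 to 50.8 with a median of 1.65, and its level was above 2.01 in 2 of them. The highest mTOR value came from 1 of these 2, chr15:74916201-74916600, where IgG rose 50.8 times over its flanks and ERRα was 3.80-fold over IgG. Divided by the rise of IgG, the rise of mTOR was 1.08 to 11.8 in the 11 regions and exceeded the 2.36 of Esrra in 8. The 2.36 rests on about 15 mTOR and 6 IgG tags in the highest ERRα bin. In the bin beside it, with ERRα at 56.8 against 58.0, mTOR stood at 2.88 times its flanks with IgG unchanged at 0.600. The standing of Esrra thus depends on which of these bins is read. mTOR made up a larger share of the ERRα level than at Esrra in 10 of the 11, within a range of 2.91% to 33.3%, whose upper end is again the region on chromosome 15. These comparisons were chosen after the values were seen and have no test. ERRα regions were also dense around Esrra: 4 other ERRα regions had their highest bin within 12.5 kb of it, and 5.31% of the other strong regions had as many or more (median 1). All of these 4 but the one near -2.6 kb were single bins at 3.02- to 3.64-fold, close to the limit of 3. They are not the same set as the other regions of the locus. They include chr19:7006601-7006800, which lies outside the locus, and leave out chr19:6982401-6982600, which lies 14.4 kb away inside it. Such counts depend on the limits: the locus held 5 regions as called, 3 with the pseudocount doubled and 2 at a minimum of 5-fold. The nearest ERRα regions outside the locus were chr19:7006601-7006800, 9.80 kb away on the side of higher coordinates at 2.71 against 0.600 in IgG, and chr19:6913001-6913200, 83.8 kb away on the other side at 3.60 against 0.700. The nearest mTOR regions outside it were chr19:6974601-6974800, 22.2 kb away at 3.76 against 0.600 in IgG, and chr19:7115001-7115400, 118 kb away at 2.73 against 0.642. ERRα coverage was 0.5 at both of these, under IgG.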

How the data were processed

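The deposited files are bedGraph tracks of coverage signal, which the authors scaled to 10000000 tags of each library, per the file headers; values come in steps of 0.1. BWA 0.5.9, MACS 1.4.1 and build mm9 are named in the submitters' processing notes without saying what each was used for. How tags were extended, how duplicate reads were handled and which program made the tracks were not given in the sources used here. Coverage summed to 149.3 to 149.9 bp per tag, and this length was used to turn coverage into approximate tags.

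Each group, taken from the sample titles, held 1 library. Coverage was averaged over 200-bp bins, with uncovered positions at 0. The pseudocount of 0.2 was the 5th percentile of covered IgG bins. Ratios carry exact 95% intervals without the pseudocount, and the minimum level of 2.01 corresponds to 16.8 mTOR and 19.9 ERRα tags. No p-value was computed. The caller was also run on simulated data, with regions planted on chromosome 19 and tags drawn at random from a smoothed IgG profile. Such data lack the extra spread of real libraries, and regions were not planted where IgG was high. The outcome is not reported here, and no result relies on it.

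The locus, the gene list and the measures were chosen with earlier results of these data known. Named were called regions in and next to the locus, 50-bp maxima, the 5 most similar regions, the neighbours in rank and the listed genes. RefSeq windows (GRCm38.p6) were matched by symbol. A gene of the planned list is not reported here. Alternatives covered the pseudocount, scaling, control, bin size and limits. Software was Python 3.11.15 with NumPy 2.4.6, pandas 2.3.3, SciPy 1.17.1 and Matplotlib 3.10.9.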

Additional observations from a re-analysis of the deposited data

How the results depend on the processing

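Of 50 recomputed values, 39 stayed within the interval or within 1.5 times the reported value, and 11 moved. A turn of direction could be scored only for the coverage ratios at the peak, of which 0 turned, and not for ranks, counts or widths. The ratios were recomputed with a pseudocount but judged by the interval without it. That interval was wide for mTOR over IgG (1.01 to 8.66), so staying within it says little. The fold of ERRα over IgG at Esrra stayed between 58.4 and 91.7, that of mTOR between 2.22 and 3.67, and the peak width between 356 and 369 bp. The rank of the peak by level was 637 in bins of 50 bp, 343 in bins of 100 bp and 13 without bins of high IgG, and its rank by fold was 63 without IgG. The locus held 3 ERRα regions with the pseudocount doubled, 8 in bins of 50 bp and 2 at a minimum of 5-fold; the main peak and the region near -2.6 kb were called in each of these. mTOR regions numbered 0 with the pseudocount doubled, 0 at a minimum of 5-fold, 2 with libraries scaled to the same median and 2 in bins of 50 bp, the added one within chr19:6995001-6995200. Where values moved other than through a stricter or looser limit, the cause was not tested. No paired analysis was possible because each group held 1 library. About 6 IgG tags and 15 mTOR tags limit the ratios in the highest bin.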
